A study of Mus musculus with 16 samples.

Results

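The 10 genes described here are genes of the glucocorticoid receptor pathway of mouse liver: the receptor gene Nr3c1, the hormone-activating enzyme gene Hsd11b1, and 8 genes that glucocorticoids are known to induce (Fkbp5, Tsc22d3, Sgk1, Zbtb16, Klf9, Tat, Mt1 and Mt2). They were taken by symbol from a table of 78317 genes, and all 10 had a row. They were chosen by their known place in the pathway and with their log2 changes between the diets in these same libraries in view, so their diet changes are given as a description, with folds and errors but no p-value. All 10 passed the filter on low counts, which 14781 genes passed.

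RNA was measured in the whole liver of wild-type C57BL/6J mice, an inbred strain, in 4 groups with 4 libraries each. Females and males ate either a normal chow with 4.5% of its calories from fat or a high fat diet with 60% from fat. The animals arrived aged 6 weeks, were housed in groups with free access to food and stayed on their diet for 10 weeks. The 2 diets came from different makers and so can differ in more than fat. All libraries carry the same batch number, and the labels state the light schedule but not the hour at which livers were taken. No label ties a library to an animal beyond its replicate number, so the error below is the spread between libraries.

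Glucocorticoids are steroid hormones of the adrenal gland, corticosterone in the mouse, whose level in blood follows a daily rhythm and rises with stress and fasting. In the absence of hormone the receptor sits in the cytoplasm in a complex with chaperones. With hormone bound it moves to the nucleus, binds DNA at short palindromic elements and raises or lowers transcription of nearby genes. In liver it is best known for raising the enzymes of amino acid breakdown and of glucose production. Only RNA was measured here: corticosterone, receptor protein and receptor binding were not analysed.

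The promoters show where the letters of the receptor's element occur beside these genes. RefSeq windows of the 250 bases before a transcription start (build GRCm38.p6, used for sequence only) matched 8 of the 10 genes, with 15 starts. The full element, 2 half-sites AGAACA that face each other across 3 bases of any kind, searched on both strands, was found in 3 of 32851 windows of the same length (0.00913%), and 1 of these belonged to Sgk1. A single half-site, which the full element contains, was in 16.1% of all windows and the E-box CACGTG in 6.02%. In the 3 windows that follow, capitals mark the full element, half-sites on either strand and E-boxes. They are shown for the gene with the full element and for 2 genes called in both sexes whose windows held a match. In the Sgk1 window an E-box and a half-site share letters and form the first run of capitals, and the second run is the full element, 189 to 175 bases before the start.
Sgk1, start 5 of 6, chr10:21993640-21993889, plus strand: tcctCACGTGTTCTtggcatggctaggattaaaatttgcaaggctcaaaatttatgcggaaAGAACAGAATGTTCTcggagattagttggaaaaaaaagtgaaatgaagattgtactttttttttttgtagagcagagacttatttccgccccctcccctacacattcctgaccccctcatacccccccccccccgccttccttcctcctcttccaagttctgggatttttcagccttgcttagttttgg
Tsc22d3, start 2 of 3, chrX:140600523-140600772, minus strand: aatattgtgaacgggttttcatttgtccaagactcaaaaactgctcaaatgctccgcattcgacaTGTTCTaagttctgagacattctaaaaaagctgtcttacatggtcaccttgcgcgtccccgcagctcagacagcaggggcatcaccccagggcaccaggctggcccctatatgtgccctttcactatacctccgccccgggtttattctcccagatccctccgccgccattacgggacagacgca
Fkbp5, chr17:28486150-28486399, minus strand: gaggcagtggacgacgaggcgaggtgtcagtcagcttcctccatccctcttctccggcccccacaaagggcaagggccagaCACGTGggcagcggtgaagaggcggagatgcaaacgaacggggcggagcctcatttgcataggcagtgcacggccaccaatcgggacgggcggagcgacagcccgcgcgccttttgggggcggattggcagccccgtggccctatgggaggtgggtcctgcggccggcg
The Tsc22d3 window held a half-site 185 bases before the start, while its other 2 starts held no element, half-site or E-box. Of the other Sgk1 starts, starts 1 and 4 held a half-site and starts 2, 3 and 6 held none of the 3. The Fkbp5 window held an E-box 169 bases before the start. The window of Tat and that of Klf9 held neither the element, the half-site nor the E-box.

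The metallothionein promoters are shown for their metal response elements, since these genes respond to zinc as well as to glucocorticoids. Capitals mark TGCGCNC or TGCACNC on either strand, which 21.4% of all windows held.
Mt1, chr8:94178839-94179088, plus strand: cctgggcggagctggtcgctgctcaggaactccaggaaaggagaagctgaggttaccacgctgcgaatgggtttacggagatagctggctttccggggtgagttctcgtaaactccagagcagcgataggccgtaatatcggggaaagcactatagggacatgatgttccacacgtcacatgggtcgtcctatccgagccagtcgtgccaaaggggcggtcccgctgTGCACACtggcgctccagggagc
Mt2, chr8:94172368-94172617, plus strand: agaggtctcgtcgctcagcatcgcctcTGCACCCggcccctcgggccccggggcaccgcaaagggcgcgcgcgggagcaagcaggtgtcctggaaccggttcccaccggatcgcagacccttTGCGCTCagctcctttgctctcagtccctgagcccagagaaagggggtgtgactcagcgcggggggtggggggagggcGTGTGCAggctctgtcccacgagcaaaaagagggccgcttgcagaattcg
The Mt2 window held 3 such matches, at 223, 128 and 50 bases before the start, and the Mt1 window held 1, at 23 bases before it. The Mt1 window also held a looser form of the receptor's element, with the shorter half-site GNACA and the same spacing, 94 to 82 bases before the start, which 0.387% of all windows held. These matches describe letters in 1 window for each start and do not show binding.

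Depth was between 22228115 and 41420589 counts in a library, and the smallest count of any of the 10 genes was 44, for Zbtb16. Replicates 2 and 3 of the male high fat diet differed by a chi-square of 4 per gene, where every other pair of libraries in a group differed by at least 20.7. They were counted as 2 samples. With their mean as 1 sample, the genes called in males fell from 1684 to 1193 of all tested and those called in the interaction from 100 to 60. The same 3 of the 10 genes were then called in males, and the values for single genes are given below. These libraries also carried the highest summed adipocyte markers of the series, 20.2 and 20.8 TPM against 9.84 or less elsewhere, and the highest summed pancreatic acinar markers, 34.5 and 13.6 TPM against 6.82 or less elsewhere. Hepatocyte markers summed to 56350 TPM or more in every library, so the defining markers of the labelled tissue were present. On the high fat diet 2 of 8 were called lower in females (Cps1 and Hnf4a) and 3 of 8 in males (Alb, Serpina1a and Hnf4a). Over all tested genes 5.76% were called lower and 5.74% higher in females, and 5.36% lower and 6.03% higher in males. Kupffer cell markers summed to 161 to 221 TPM in females on the normal diet and 299 to 483 on the high fat diet, with 3 of 8 called higher. In males these sums were 136 to 241 and 136 to 282 TPM, with 1 of 8 called higher. Stellate cell markers summed to 189 to 207 TPM and 208 to 230 TPM in females on the normal and the high fat diet, with 3 of 7 called higher, and to 128 to 147 and 159 to 212 TPM in males, with 0 called. Neutrophil markers summed to 2.55 to 4.00 and 7.05 to 19.8 TPM in females, with 2 of the 4 tested called higher, and to 1.06 to 21.7 and 10.7 to 26.4 TPM in males, with 0 called. T and B cell markers stayed at 8.62 TPM or less in all libraries. In whole tissue, fewer cells of a type and less RNA per cell cannot be told apart. The part of other cells in the changes below was not tested.

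Across all 16 livers the 10 genes covered a wide range of levels in TPM, a unit that divides by gene length. Tat (mean 784 TPM) and Mt1 (783) were the most abundant, followed by Hsd11b1 (638) and Mt2 (451). Tsc22d3 (76.9), Klf9 (42), Fkbp5 (35.0) and Nr3c1 (22.3) were intermediate. Sgk1 (11.2) and Zbtb16 (3.73) were lowest. The ranges over livers of Tat, Mt1 and Hsd11b1 overlapped (296 to 1440, 425 to 1472 and 411 to 880 TPM), as did those of Klf9, Fkbp5 and Nr3c1. Within a gene, values below are CPM, counts scaled by library size and TMM factor, which is the scale of the tests.

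**Figure D1:**
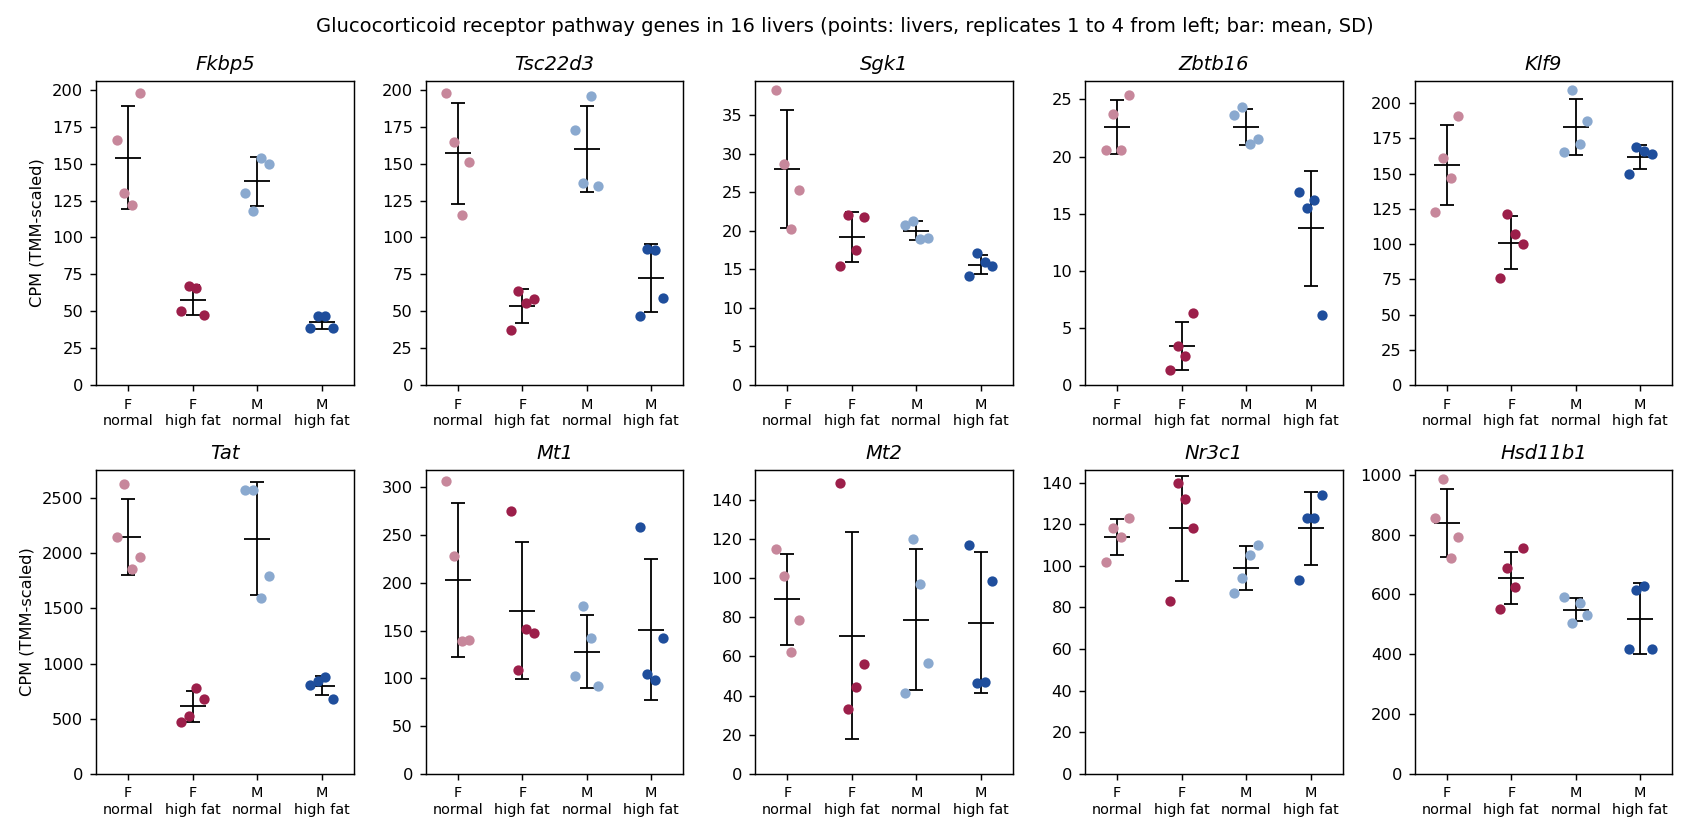
CPM of the 10 genes in each liver, 1 panel per gene, with the 4 groups on the horizontal axis; points are the 4 replicates in order, and bars are the mean and SD. In Fkbp5, Tsc22d3 and Tat the high fat diet points lie below the normal diet points in both sexes, while Mt1, Mt2 and Nr3c1 overlap between diets.

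A larger share of these genes than of all genes was called lower on the high fat diet, but the genes were chosen with these changes known, so the comparison carries no weight of its own. In females 6 of 10 were called lower and 0 higher, where 5.76% of all tested genes were called lower and 5.74% higher. In males 3 of 10 were called lower and 0 higher, where 5.36% of all tested genes were called lower and 6.03% higher. A gene was called when its Benjamini-Hochberg adjusted p in the edgeR quasi-likelihood fit over all genes was under 0.05. For each of the 10 genes, here and below, a diet call or its loss is likewise only a description of that fit. Fkbp5, Tsc22d3 and Tat were called in both sexes. Sgk1, Zbtb16 and Klf9 were called in females. In CPM the diet libraries of 5 genes did not overlap in females and those of 5 did not in males, where 9.55% and 9.13% of all genes had the high fat libraries wholly below. None of the 10 had them wholly above, where 8.71% of all genes did in females and 9.32% in males. The median log2 change of the 10 was -0.59 in females and -0.27 in males, against 0.00 and 0.01 over all tested genes.

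The genes of the receptor and of the enzyme that supplies its hormone were not called between the diets in either sex. Nr3c1, the glucocorticoid receptor itself, had a log2 change of 0.05 ± 0.15 (SE) in females and 0.26 ± 0.15 in males. Its libraries read 102, 118, 114 and 123 CPM in normal diet females and 83.3, 140, 132 and 118 in high fat diet females. In males they read 86.7, 94.3, 105 and 110 on the normal diet and 93.3, 123, 123 and 134 on the high fat diet. The groups overlapped in both sexes, and neither change was called. The male change was 0.24 with the near-identical replicates averaged. Hsd11b1, which regenerates active corticosterone from its inert 11-keto form inside the cell, read 855, 988, 722 and 793 CPM in normal diet females and 552, 688, 626 and 755 in high fat diet females. In males it read 592, 504, 570 and 530 CPM on the normal diet and 416, 616, 628 and 418 on the high fat diet. Its log2 change was -0.36 ± 0.15 in females and -0.08 ± 0.15 in males (-0.18 with those replicates averaged), and neither was called.

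Fkbp5, a co-chaperone that lowers the receptor's affinity for hormone and is itself induced by the receptor, was lower on the high fat diet in both sexes. Its libraries read 166, 130, 122 and 198 CPM in normal diet females and 50, 67.2, 65.9 and 47.6 in high fat diet females. In males they read 130, 118, 154 and 150 CPM on the normal diet and 38.4, 47.0, 46.7 and 38.5 on the high fat diet. No high fat diet library reached the lowest normal diet library of its sex. The decrease was 2.67-fold in females (log2 -1.42 ± 0.16 SE) and 3.24-fold in males (log2 -1.69 ± 0.16). The male log2 change was -1.75 when the near-identical replicates were averaged.

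Tsc22d3, also called GILZ, encodes a leucine zipper protein through which glucocorticoids restrain inflammatory transcription. It read 198, 165, 115 and 151 CPM in normal diet females and 37.0, 63.4, 55.4 and 58.5 in high fat diet females. In males it read 173, 137, 196 and 135 CPM on the normal diet and 47.1, 92.5, 91.3 and 59.1 on the high fat diet. The diet groups did not overlap in either sex. It was 2.94-fold lower in females (log2 -1.55 ± 0.23 SE) and 2.21-fold lower in males (log2 -1.14 ± 0.23). The male change was -1.28 with the near-identical replicates averaged.

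Tat, the tyrosine aminotransferase that begins tyrosine breakdown and a classical glucocorticoid-induced liver enzyme, was lower on the high fat diet in both sexes. Its libraries read 2150, 2630, 1855 and 1964 CPM in normal diet females and 467, 528, 774 and 675 in high fat diet females. In males they read 2571, 2578, 1591 and 1794 CPM on the normal diet and 804, 839, 878 and 677 on the high fat diet. The diet groups did not overlap in either sex, and the lowest normal diet liver (1591 CPM) lay well above the highest high fat diet liver (878). The decrease was 3.52-fold in females (log2 -1.81 ± 0.19 SE) and 2.67-fold in males (log2 -1.42 ± 0.19, and -1.46 with the near-identical replicates averaged).

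Zbtb16, a transcriptional repressor also known as PLZF, had the largest diet difference of the 10 genes in females. It read 20.6, 23.7, 20.6 and 25.4 CPM in normal diet females and 1.33, 3.41, 2.58 and 6.32 in high fat diet females, a 6.70-fold decrease (log2 -2.74 ± 0.37 SE). In males it read 23.6, 24.3, 21.1 and 21.5 CPM on the normal diet and 16.9, 15.5, 16.2 and 6.15 on the high fat diet. The male decrease of 1.65-fold (log2 -0.72 ± 0.33) was not called, although the male groups did not overlap. The lowest male library, replicate 4, moved this value: without it the log2 change was -0.48, and with replicates 2 and 3 averaged it was -0.80. The female change ranged from -3.21 to -2.47 when each high fat diet library was left out in turn.

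Klf9, a Krüppel-like factor that glucocorticoids and thyroid hormone induce, was called lower in females, by a smaller margin. It read 123, 161, 147 and 191 CPM in normal diet females and 76.2, 121, 107 and 99.9 in high fat diet females, a 1.54-fold decrease (log2 -0.63 ± 0.14 SE). In males it read 165, 209, 171 and 187 CPM on the normal diet and 150, 169, 166 and 164 on the high fat diet (log2 -0.18 ± 0.14, and -0.19 with the averaged replicates), with overlapping groups, and the change was not called. On log2(TPM + 1), fitted with limma, the female change was -0.37 and was not called.

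Sgk1, a kinase that regulates ion channels and that glucocorticoids induce, read 38.2, 28.6, 20.2 and 25.3 CPM in normal diet females and 15.4, 22.1, 17.5 and 21.8 in high fat diet females. These groups overlapped, and the decrease was 1.46-fold (log2 -0.55 ± 0.16 SE). In males it read 20.8, 21.3, 18.9 and 19.0 CPM on the normal diet and 14.1, 17.1, 15.9 and 15.4 on the high fat diet (log2 -0.36 ± 0.16, and -0.38 with the averaged replicates). The female decrease was called and the male one was not. In females its call was lost on leaving out normal diet replicate 1 (log2 -0.35) or 2 (-0.52), high fat diet replicate 1 (-0.46) or 3 (-0.50), on fitting only the 2 female groups (-0.53) or in limma on log2(TPM + 1) (-0.26).

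The metallothioneins Mt1 and Mt2, small cysteine-rich proteins that bind zinc and copper, were not called in either sex. Mt1 read 307, 228, 139 and 140 CPM in normal diet females and 275, 109, 152 and 147 in high fat diet females. In males it read 102, 176, 142 and 92.2 CPM on the normal diet and 259, 105, 98.7 and 142 on the high fat diet. Its log2 changes were -0.25 ± 0.37 in females and 0.24 ± 0.37 in males. Mt2 had log2 changes of -0.34 ± 0.49 and -0.03 ± 0.49. With the averaged replicates the male changes were 0.38 for Mt1 and 0.15 for Mt2. Mt2 spread about as widely among normal diet males (41.3 to 120 CPM) as among high fat diet males (46.5 to 117). Normal diet females covered 62.5 to 115 CPM. High fat diet females covered 33.1 to 149 CPM, where replicate 1 alone read above 56.3. In TPM, Mt2 stood at 0.348 to 0.832 of Mt1 in each liver, and the 2 lowest ratios (0.348 and 0.359) were in high fat diet females. The 2 genes are paralogs, and how many of their reads could belong to either was not tested. An antisense gene overlaps Mt2.

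**Figure D2:**
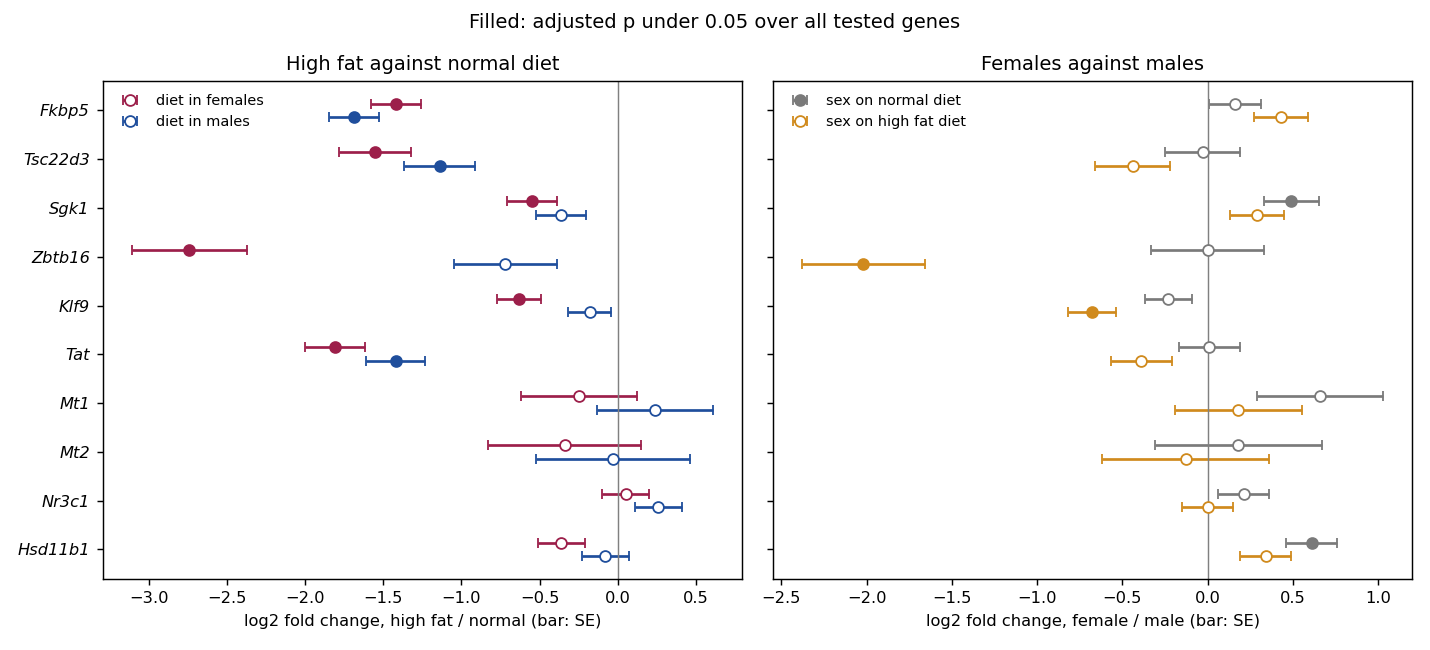
Log2 fold change of each gene in the diet contrasts of females and males and in the 2 sex contrasts, with bars of the SE. Filled points passed the adjusted p threshold. In all, 6 female and 3 male diet points lie below 0 and passed.

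How far the diet changes differed between the sexes was read from the interaction, the female change minus the male change. It is made of the same diet changes that were in view when the genes were chosen. Its adjusted p-values for these genes are therefore a description and carry no weight of their own. None of the 10 genes was called, where 0.677% of all tested genes were and 0.413% were called with a lower female change. The largest difference was that of Zbtb16, -2.02 ± 0.49 on the log2 scale (edgeR quasi-likelihood test, adjusted p = 0.0839). Over the settings tried, its adjusted p ranged from 0.00206 to 0.209. The Wald test of DESeq2 called it (adjusted p = 0.00206), as did edgeR without female high fat diet replicate 4 (0.0117) or without male high fat diet replicate 4 (0.0205). The difference became -1.94 (0.156) with male replicates 2 and 3 averaged. Klf9 differed by -0.45 ± 0.20 (adjusted p = 0.347), Tsc22d3 by -0.41 ± 0.32 (0.634), Tat by -0.40 ± 0.26 (0.553) and Fkbp5 by 0.28 ± 0.22 (0.642). A call in females without one in males, as for Sgk1, Zbtb16 and Klf9, is not by itself a difference between the sexes.

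Of the 10 genes 2 were called between females and males on each diet, a share near that of all tested genes (15.7% on the normal diet and 20.4% on the high fat diet in either direction). These contrasts use the same libraries as the diet changes that were in view when the genes were chosen. Their adjusted p-values for these genes are therefore also a description and carry no weight of their own. On the normal diet 2 of 10 were called higher in females and 0 lower, where 7.03% of all tested genes were called higher and 8.68% lower. Hsd11b1 was 1.53-fold higher in females (log2 0.61 ± 0.15 SE, adjusted p = 0.0115), with no overlap between the sexes (9.86% of all genes had the females wholly above), and kept its call in all settings tried. Sgk1 was 1.40-fold higher in females (log2 0.49 ± 0.16, adjusted p = 0.0423), with overlapping libraries. Sgk1 lost this call without female normal diet replicate 1 (log2 0.31) or 2 and without any single male normal diet library. On the high fat diet 2 of 10 were called lower in females, and 0 higher, where 11.6% of all tested genes were called lower and 8.84% higher. Zbtb16 was 4.07-fold lower in females (log2 -2.02 ± 0.36, adjusted p = 0.00186), and Klf9 was 1.61-fold lower (log2 -0.68 ± 0.14, adjusted p = 0.00315). With the near-identical male replicates averaged these were -1.95 (edgeR adjusted p = 0.00559) and -0.67 (0.00855). Klf9 libraries did not overlap between the sexes (12.4% of all genes had the females wholly below), whereas the highest female Zbtb16 library (6.32 CPM) lay above the lowest male one (6.15 CPM). On the normal diet the log2 difference between the sexes was 0.00 ± 0.33 for Zbtb16 and -0.23 ± 0.14 for Klf9. Fkbp5 was higher in all high fat diet females than in all high fat diet males but was not called (log2 0.43 ± 0.16, adjusted p = 0.0571).

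How the genes varied together was read from log2 CPM after each group's mean was removed, over 16 livers. Of 45 pairs, 29 had a positive Pearson r, and the values ranged from -0.72 to 0.89. These values describe livers that share a library protocol and scaling, and depth and tissue make-up were not removed from them. Mt1 and Mt2 had the highest r, 0.89 (Spearman rho 0.85). Tsc22d3 and Hsd11b1 followed with an r of 0.86 (rho 0.87), Klf9 and Nr3c1 had 0.75 (rho 0.67) and Tsc22d3 and Sgk1 had 0.70 (rho 0.70). Mt1 and Nr3c1 had the lowest r, -0.72 (rho -0.57). Without the 2 livers farthest from the median, these became 0.85, 0.80, 0.56, 0.64 and -0.45 in the same order. The r of Fkbp5 with Tsc22d3, both called in both sexes, was 0.55 (rho 0.47).

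**Figure D3:**
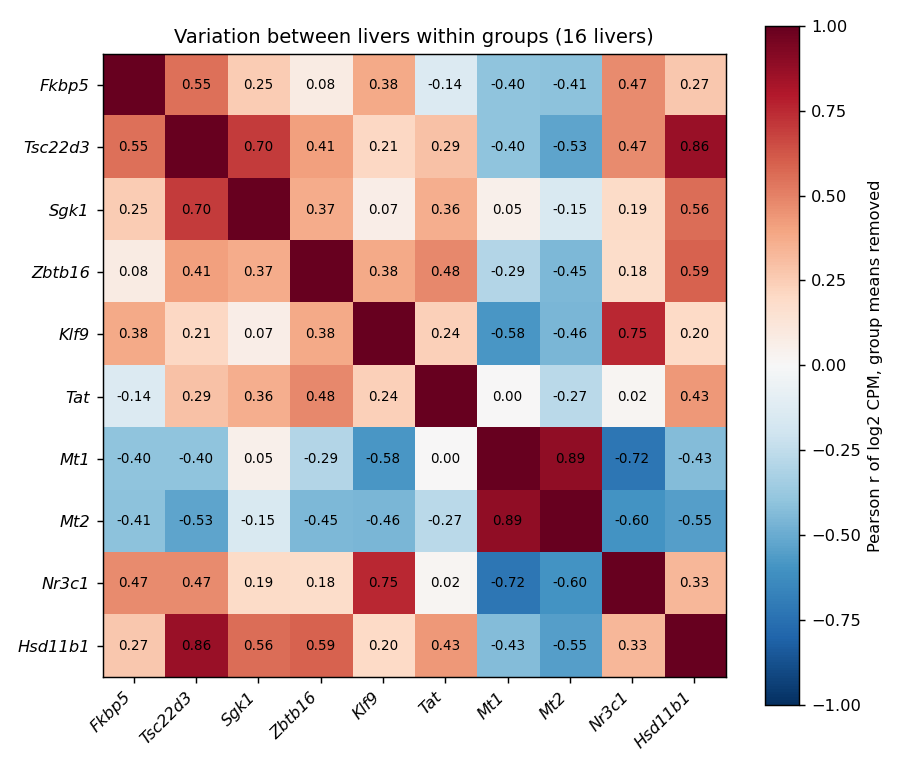
Pearson r of log2 CPM between each pair of the 10 genes over 16 livers, after each group's mean was removed; colour gives r from negative to positive. Mt1 with Mt2 (0.89) and Tsc22d3 with Hsd11b1 (0.86) are the highest, and Mt1 with Nr3c1 (-0.72) is the lowest.

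The genes most like each of these over the same livers, by the highest r among genes whose log2 CPM averaged 1 or more, are given as a description. For Tsc22d3 they were Prodh and Mocs1 (each 0.91) and Dusp1 (0.90), a phosphatase that glucocorticoids also induce. Between the diets Dusp1 had log2 changes of -0.05 ± 0.53 (SE) in females and 0.39 ± 0.53 in males, and neither was called. For Fkbp5 they were Gm35315 (0.93), Hnrnpll (0.85) and Cggbp1 (0.85). For Nr3c1 they were Reps2, Iqgap2 and Trappc8 (each 0.96), and for Hsd11b1 they were Ndrg2 (0.94), Tcn2 and Pipox (each 0.92). Klf9 was most like Dhx36 (0.92), and Tat was most like Tom1l1 (0.90). Mt1 was most like Cmtm3, Cxcl1 and Ctsz (each 0.91). Mt2 was most like Ppa1 (0.93), Zbtb16 most like Letmd1 (0.88) and Sgk1 most like Zfp85 (0.84).

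Among 24 other genes known to be induced by glucocorticoids, 13 were called lower and 1 higher in females on the high fat diet. In males 8 were called lower and 2 higher. Over all tested genes the shares called lower and higher were 5.76% and 5.74% in females and 5.36% and 6.03% in males. The same shares apply to the diet counts of the lists that follow. All 8 lists were written with earlier results of these data known, so their counts carry no weight of their own. The median log2 change of the list was -0.93 in females and 0.04 in males. Lpin1, a phosphatidate phosphatase, was 9.63-fold lower in females (log2 -3.27 ± 0.29 SE) and 3.43-fold lower in males (log2 -1.78 ± 0.27). Pck1, the gluconeogenic enzyme PEPCK, was 2.53-fold lower in females and 1.66-fold lower in males. Ddit4, an inhibitor of mTORC1, was 4.21-fold lower in females and 1.78-fold lower in males. Mfsd2a, a lipid transporter, was the only gene of the list called in the interaction (log2 -2.30 ± 0.36, edgeR adjusted p = 0.00629): it was 3.91-fold lower in females, and in males its log2 change was 0.33 ± 0.25. Cebpb, a transcription factor of the acute response, was 2.22-fold lower in females, and its male log2 change was 0.10 ± 0.20. The only genes of the list called higher were Tgm2 in both sexes and Pdk4 in males. With the near-identical replicates averaged, 8 were called lower and 3 higher in males.

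Of 14 chaperones of the receptor, 1 was called lower in females and 9 were called lower in males (8 with the averaged replicates). The difference between these counts was not tested. Dnajb1, an Hsp40 co-chaperone, was called in both sexes, 1.64-fold lower in females and 3.22-fold lower in males. Hspa8, the constitutive Hsc70, was 2.14-fold lower in males with a log2 change of -0.19 ± 0.13 in females, and it was the only one called in the interaction (log2 0.91 ± 0.19, edgeR adjusted p = 0.0273). With the averaged replicates 0 of the 14 were called in the interaction. Stip1, which links Hsp70 to Hsp90, was 1.94-fold lower in males and had a log2 change of -0.21 ± 0.14 in females. Hsp90ab1, the Hsp90 that holds the receptor ready for hormone, was 1.61-fold lower in males (log2 -0.69 ± 0.12), and its female log2 change was 0.00 ± 0.12. Hspa1b, an inducible Hsp70, was 10.3-fold lower in males, but its reads cannot be divided with certainty from those of its near-identical copy Hspa1a. Its mean was 93.5 CPM in normal diet males and 9.1 in high fat diet males. In females it was 12.1 CPM on the normal diet and 6.18 on the high fat diet. On the normal diet 5 of the 14 were called lower in females than in males and 0 higher. Over all tested genes these shares were 8.68% and 7.03%. Of 15 coregulators, Med14 was called lower in females and Smarca4 higher in males.

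Genes that supply or clear corticosteroids were called in a few cases. Of 12 genes 11 were tested. Cyp3a11, a steroid hydroxylase with close paralogs, was 3.35-fold lower in females and 12.7-fold lower in males on the high fat diet. Srd5a1, a 5-alpha-reductase that inactivates corticosterone, was 1.85-fold lower in females and 1.64-fold lower in males, where it was not called with the averaged replicates. Nr3c2, the mineralocorticoid receptor, was 1.47-fold higher in females, with a male log2 change of 0.37 ± 0.16 that was not called. Serpina6, the corticosteroid-binding globulin of blood, was not called in either diet contrast (log2 0.50 ± 0.28 in females and -0.16 ± 0.28 in males). Of 12 genes of metal response and zinc transport, Slc39a8 was called higher in females (log2 0.37 ± 0.11). In males Slc30a10 was called higher (log2 1.06 ± 0.24) and Slc39a4 lower (log2 -1.03 ± 0.15).

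**Figure D4:**
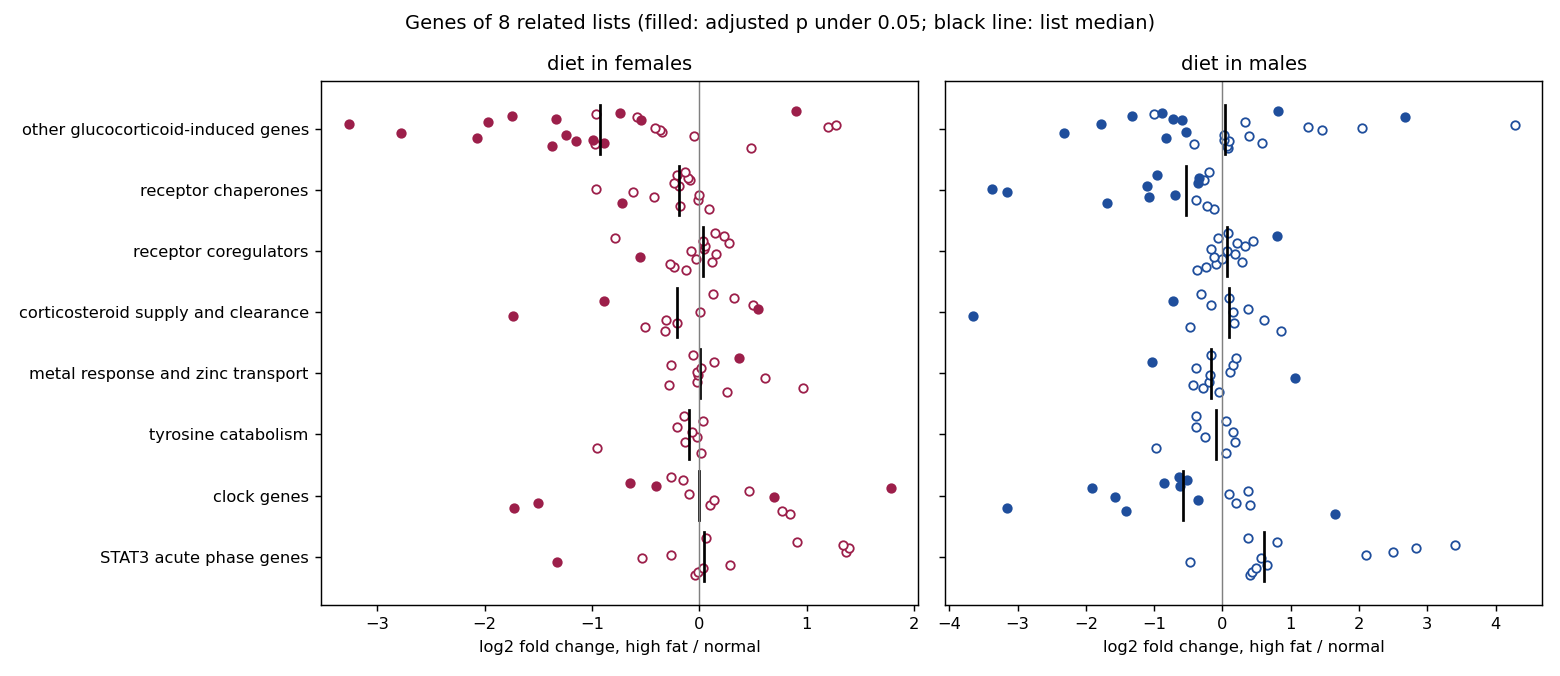
Log2 change on the high fat diet of every tested gene in the 8 related lists, in females and in males; each point is a gene, and the line is the list's median. The median of the other glucocorticoid-induced genes is -0.93 in females and 0.04 in males, and that of the chaperones is -0.19 and -0.54.

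Clock genes are set beside these values because the hormone has a daily rhythm. Per1, a clock gene that glucocorticoids induce directly, was 3.36-fold lower in females and 2.49-fold lower in males. Per2 was 1.56-fold and 1.81-fold lower. Nr1d1, a clock repressor, was 3.47-fold higher in females and 3.76-fold lower in males, and Dbp, a clock output, was 1.63-fold higher in females and 2.97-fold lower in males. Arntl, the clock activator BMAL1, was 3.14-fold higher in males, with a female log2 change of 0.85 ± 0.29 that was not called (adjusted p = 0.0593, edgeR). Per1 was counted with the other glucocorticoid-induced genes above and is not in the counts that follow. Of the 14 tested genes of the clock list, 2 were called higher and 4 lower in females. In males 1 was called higher and 9 lower (1 and 8 with the averaged replicates). Cry1, a clock repressor, was 2.83-fold lower in females with a male log2 change of 0.20 ± 0.21, and was called in the interaction (log2 -1.70 ± 0.30, edgeR adjusted p = 0.0112). Ciart, another clock repressor, was 3.32-fold lower in females and 8.85-fold lower in males. Collection hour and diet cannot be told apart from the labels.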

How the data were processed

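Whole-liver poly(A) RNA of 16 mice was sequenced, 4 in each of 4 groups taken from the sample titles. The submitters' processing notes name STAR, RSEM and build GRCm39. The authors deposited RSEM expected counts, which share ambiguous reads between genes (4.89% of entries were not whole), and TPM, which divides by effective length and sums to the same total in each library. Whether counting used strand is not given in the sources used here.

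Expected counts were rounded. Genes were kept by filterByExpr, scaled by TMM and tested with edgeR 4.0.16 (R 4.3.3) by the quasi-likelihood test with robust settings over all 16 libraries, 1 mean per group. Tests were two-sided, with Benjamini-Hochberg adjustment over 14781 genes. SE is the log2 fold change over the square root of F. The script was tested on simulated data. Alternatives used limma 3.58.1 on log2(TPM + 1) and log2(TPM + 0.1), DESeq2 1.42.0, other filters and each library left out. Likeness used log2 CPM with a prior count of 2. Promoter letters came from RefSeq (GRCm38.p6).

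The 10 genes, the 8 related lists and the 9 marker lists were chosen with earlier results of these data known. All 10 genes are named. From each list, up to 6 genes could be named, by the smallest adjusted p over the diet contrasts and the interaction, with 5 clock genes in any case. Tgm2, Pdk4 and the marker genes were named after their values were seen.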

Additional observations from a re-analysis of the deposited data

Results flagged for a closer look

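Zbtb16 in male high fat diet replicate 4 read 6.15 CPM, where the other libraries of its group read 16.9, 15.5 and 16.2. Its gap to the nearest library was 0.87 of the group's range. It was the only one of 40 combinations of gene and group to stand so far from the rest, and chance alone marks about 1 in 20. The interaction of Zbtb16 was -2.25 on the log2 scale without this library and -2.02 with it.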

How the results depend on the processing

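For 50 results, each a gene in a contrast, 850 recomputed values included 772 that kept direction and call, 17 that lost a call, 15 that gained one and 46 that changed sign. In females on the high fat diet 4 genes were called in limma on either log2 TPM scale (Fkbp5, Tsc22d3, Zbtb16 and Tat), and 5 to 6 with 1 library left out. In males 3 were called with each library left out. The interaction gave 1 gene with the Wald test of DESeq2 and 0 to 1 with 1 library left out. The sex contrast on the normal diet gave 1 gene on both TPM scales and 1 to 2 with a library left out. That on the high fat diet gave 3 genes with DESeq2's size factors, its Wald test or no filter, 5 on both TPM scales, and 2 to 3 with a library left out. The cause was not tested. TPM moved the median change of all genes by 0.15 (TPM + 1) and 0.22 (TPM + 0.1) in females, by 0.11 and 0.15 in the interaction and by 0.10 and 0.15 between the sexes on the high fat diet.

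Sign changes were in values that passed no test. For Mt1 and Mt2 the SE of these values in the main fit ran from 0.37 to 0.7. Mt2 in males was 0.02 on both TPM scales and 0.15 with the near-identical replicates averaged. Zbtb16 between the sexes on the normal diet was 0.00 with DESeq2's size factors, its Wald test and only the 2 groups, and 0.01 with no filter. Nr3c1 between the sexes on the high fat diet was 0.02 with these settings and with the averaged replicates, and 0.15 on both TPM scales. With 1 library left out, values in females ran from -0.58 to 0.04 for Mt1 and from -0.03 to 0.18 for Nr3c1. In males they ran from -0.16 to 0.43 for Mt1, -0.31 to 0.24 for Mt2 and -0.18 to 0.01 for Hsd11b1. In the interaction they ran from -0.32 to 0.01 for Sgk1 and -0.97 to 0.00 for Mt2. Between the sexes on the normal diet they ran from -0.15 to 0.10 for Tsc22d3, -0.06 to 0.04 for Zbtb16, -0.11 to 0.12 for Tat and -0.03 to 0.46 for Mt2. On the high fat diet they ran from -0.15 to 0.60 for Mt1, -0.79 to 0.19 for Mt2 and -0.07 to 0.13 for Nr3c1.

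Same-numbered libraries of different groups correlated between -0.159 and 0.18 over 16 pairs, 3 above 0.1, and 7 matched best with their own number. Between the diets within a sex r ran from -0.159 to 0.137. Between the sexes within a diet every r was positive, from 0.0215 to 0.18. The numbers were not taken to pair livers, and pairing within a diet alone was not tested. With the replicate number as a block across all groups the counts of called genes were 6, 3, 0, 2 and 2, as without it.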

Other observations

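Of 8 genes of tyrosine catabolism beside Tat, 0 were called on the high fat diet in females or males, with a median log2 change of -0.10 in both. Of them 3 were called higher in females than in males on the normal diet: Hpd, the enzyme after Tat in this pathway, Gstz1 and Pcbd1. Over all tested genes 7.03% were called higher in females in that contrast. Of 12 genes tied to STAT3 and the acute phase, only Il6ra was called in females (2.52-fold lower), and 0 were called in males. Il6ra encodes the interleukin 6 receptor and is not itself an acute phase gene, and the 12 also include Stat3 itself. Between the sexes on the high fat diet, 7 of these 12 were called lower in females (10 with the near-identical male replicates averaged), among them Saa1, Saa2, Orm2 and Stat3. Over all tested genes 11.6% were called lower in females in this contrast. The diet changes of the 12 spread widely: Saa1 had a log2 change of 1.37 ± 1.21 (SE) in females and 2.50 ± 1.24 in males.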
